A study of Mus musculus with 15 samples.

Results

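VGT3+ interneurons were compared with Pv+ interneurons gene by gene, using 10 of the 15 single-cell libraries of the series. The 5 VGT3+ cells and the 5 Pv+ cells were taken by their labels, and the 5 Sst+ cells were left out. Each library held cytosol sucked through a patch pipette from 1 fluorescent neuron in the CA1 field of an organotypic hippocampal slice culture, a hippocampal slice maintained in vitro. The VGT3+ cells came from VGT3/RFP mice, in which Cre recombinase driven by Slc17a8 switches on the red reporter TdTomato, and the Pv+ cells from Pv/RFP mice, in which Pvalb drives the Cre. Both lines were on a C57BL6 background, and slices were made from animals of either sex aged 6 to 7 days. The labels give neither animal nor culture, and a type was therefore handled as 1 sample. Differences between types were not tested for significance, and an SD gives only the spread between the cells of a type. The library number in the labels is G709 for all Pv+ cells and for VGT3+ cells 4 and 5, and G556 for the other 3 VGT3+ cells.

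Both types are GABAergic and many of each form baskets around pyramidal cell bodies, but they belong to different families. Pv+ basket cells arise in the medial ganglionic eminence and fire long trains of brief spikes at high rates. Their terminals release GABA in tight time with the spike. VGT3+ interneurons are a subset of the cholecystokinin (Cck) class, which arises in the caudal ganglionic eminence. They load some of their vesicles with glutamate through the transporter encoded by Slc17a8, and their terminals carry the cannabinoid receptor CB1, encoded by Cnr1, through which pyramidal cells can damp release.

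Levels are given as transcripts per 1000000 transcripts (TPM), and lists of 5 values run from cell 1 to cell 5 of a type. A difference is the mean of log2(TPM + 1) over VGT3+ cells minus that over Pv+ cells, so that 1 unit is a 2-fold change, understated for low genes. Of 43629 listed genes, 12014 averaged at least 1 TPM over the 10 cells and were compared. Genes were counted as 4-fold higher or lower at a difference of 2 or more in size. They were counted as separated where every VGT3+ cell lay on the same side of every Pv+ cell. The estimated depth was 15.8 to 32.2 M reads (M, 1000000; median 17.0 M) in VGT3+ cells and 13.2 to 18.5 M reads (median 15.2 M) in Pv+ cells. Between 5463 and 9577 genes (median 9092) were above 0 in a VGT3+ cell, and between 8439 and 11156 (median 9934) in a Pv+ cell. A value of 0 is a gene listed at 0, which in a single-cell library can be a missed transcript, and no fold is given against it.

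The cells differed in more than their type. The Y-linked gene Eif2s3y was listed at 0 in all 5 VGT3+ cells, against 63.2, 2.14, 35.4, 16.2 and 28.1 TPM in the Pv+ cells. Ddx3y, also Y-linked, was at most 0.0156 TPM in VGT3+ cells, against 4.85 to 31.7 TPM in Pv+ cells. Xist, the RNA that coats the inactive X chromosome, reached 24.2 TPM in the fifth VGT3+ cell and 0.408 TPM in the second, and was listed at 0 in the remaining 8 cells. These genes were looked up after other values had been seen. Type therefore cannot be told apart from mouse line, animal, culture or sex in these cells. Levels also spread more between VGT3+ cells: over the 2168 genes detected in every one of the 10 cells, the median SD of log2(TPM + 1) was 1.06 in VGT3+ cells and 0.66 in Pv+ cells. The median difference over those 2168 genes was 0.43, against 0.02 over all 12014 genes. Dividing by median-of-ratios size factors moved these medians to −0.01 and −0.25.

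Across the 12014 genes, 993 (8.27%) were at least 4-fold higher in VGT3+ cells and 1102 (9.17%) at least 4-fold lower. Every VGT3+ cell lay above every Pv+ cell for 295 genes (2.46%), and below for 293 genes (2.44%). Both criteria were met by 177 genes higher in VGT3+ cells and by 201 lower. In batch G709 alone, with 2 VGT3+ cells, 2217 genes (18.5%) were 4-fold higher and 1531 (12.7%) 4-fold lower. Of the 993 higher genes, 811 (81.7%) were also 4-fold higher in batch G709 alone, which is 36.6% of the 2217 genes called there. The 2 batch G709 cells are part of the 5 and the Pv+ cells are shared, so much of this overlap is built in. Of the 1102 lower genes, 900 (81.7%) were also lower there, which is 58.8% of the 1531. Taking each batch singly, 46.2% of the higher and 64.3% of the lower genes were past 4-fold in both. Leaving out VGT3+ cell 3 brought the count of genes with all VGT3+ cells above to 516, and leaving out VGT3+ cell 4 brought it to 443.

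The genes behind the labels sat where the labels place them. Slc17a8 (chromosome 10, 89574020 to 89621253, GRCm38) was at 198, 206, 106, 233 and 354 TPM in the VGT3+ cells, against 0.0327, 0, 0.0288, 0.0236 and 0 TPM in the Pv+ cells. Pvalb (chromosome 15, 78191114 to 78206400), a calcium buffer, was at 0.301, 0.468, 0, 0 and 0 TPM in the VGT3+ cells, against 3136, 4025, 4293, 7383 and 4068 TPM in the Pv+ cells. The 2 groups did not overlap for either gene. Cnr1 (chromosome 4, 33924593 to 33948831) differed by 11.02, with a mean of 2655 ± 1528 TPM in VGT3+ cells and 0.0864 ± 0.0255 TPM in Pv+ cells (SD, n = 5 each). Because Slc17a8 and Pvalb drove the reporters, their differences check the labels and are no finding.

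Beyond these, the genes that set VGT3+ cells most apart were chosen by size of difference among separated genes. They had to be above 0 in all 5 cells of the higher type and average 10 TPM or more there. They also had to be 4-fold apart in the same direction in batch G709. Their lack of overlap is fixed by that choice. Of 170 such genes on the VGT3+ side, the 15 largest were Cnr1, Sln, Fxyd6, Htr3a, Slc17a8, Zcchc12, Npy1r, Kctd16, Ralyl, Qpct, Necab1, Idh1, Igf1, Serpina3n and Adarb2. Fxyd6 (chromosome 9, 45370185 to 45396159), a small membrane protein that tunes the sodium pump, was at 828, 1912, 1392, 2360.5 and 3873 TPM in the VGT3+ cells, against 0.0863, 0.153, 0, 0 and 0.146 TPM in the Pv+ cells. It was thus among the most abundant of these genes in every VGT3+ cell and next to absent from Pv+ cells, with a difference of 10.73 (11.46 in batch G709). Zcchc12, a zinc finger coactivator encoded on the X chromosome (36195904 to 36199158), was at 63.4, 50.5, 551, 143 and 392 TPM in the VGT3+ cells, against 0.0678, 0.0602, 0, 0.0489 and 0 TPM in the Pv+ cells. VGT3+ cells 3 and 5 were the highest, and the groups lay 7.27 apart on the log2 scale.

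Kctd16, an auxiliary subunit that sets the kinetics of GABA-B receptors, was at 47.9, 67.5, 87.5, 237 and 118 TPM in the VGT3+ cells, against 0 in all 5 Pv+ cells. VGT3+ cell 4 was the highest. Qpct (chromosome 17, 79051906 to 79090378), the enzyme that caps peptide hormones with pyroglutamate, was at 158, 374, 179.7, 365 and 137 TPM in the VGT3+ cells, against 11, 0, 9.45, 0.058 and 0.0678 TPM in the Pv+ cells. Pv+ cells 1 and 3 held some of it, but no Pv+ cell came near a VGT3+ cell. Ralyl, an RNA-binding protein, was at 47.8, 210.2, 399.9, 288 and 155 TPM in the VGT3+ cells, against 23.3, 0, 0, 0 and 0.0653 TPM in the Pv+ cells. The Pv+ cell nearest to the VGT3+ cells was cell 1. Idh1, the cytosolic isocitrate dehydrogenase that makes NADPH, averaged 416 ± 279 TPM in VGT3+ cells and 6.29 ± 5.83 TPM in Pv+ cells, with a difference of 6.02. Igf1 (insulin-like growth factor, chromosome 10, 87858265 to 87937042) was at 240.2, 57.8, 481, 308 and 297 TPM in the VGT3+ cells, against 0, 0.138, 11.7, 8.91 and 4.7 TPM in the Pv+ cells. The lowest VGT3+ cell was cell 2. Serpina3n, a secreted protease inhibitor, averaged 233 ± 171 TPM in VGT3+ cells and 2.2 ± 1.69 TPM in Pv+ cells. Necab1, an EF-hand calcium-binding protein, averaged 403 ± 491 TPM in VGT3+ cells and 5.65 ± 10.2 TPM in Pv+ cells, with VGT3+ cell 3 far above the other cells.

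Of 175 candidates on the Pv+ side, the 15 largest were Pvalb, Pthlh, A930003A15Rik, Nefl, Cox6a2, Cox7a1, Nefm, Cav3, Cd59a, Parm1, Gpr22, Nrsn1, B230312C02Rik, Ndufaf2 and Nxph1. The long noncoding RNA A930003A15Rik (chromosome 16, 19876567 to 19884274) was at 0.14, 0.109, 0, 0 and 0 TPM in the VGT3+ cells, against 504, 766, 205, 622 and 191 TPM in the Pv+ cells. It was near 0 in every VGT3+ cell and high in every Pv+ cell. B230312C02Rik, a second long noncoding RNA (chromosome 2, 180370491 to 180385885), averaged 0.0218 ± 0.0302 TPM in VGT3+ cells and 164 ± 212 TPM in Pv+ cells. Cd59a, which shields cells from complement, was listed at 0 in all 5 VGT3+ cells, against 70.4, 263, 162, 63.9 and 142 TPM in the Pv+ cells. Parm1, a mucin-like membrane protein, was at 0, 0.016, 0, 0 and 0 TPM in the VGT3+ cells, against 105, 25.6, 343, 81.6 and 147 TPM in the Pv+ cells. For both genes the VGT3+ cells were at or next to 0. Gpr22, an orphan G protein-coupled receptor, was at 1.2, 0.0529, 0, 0 and 68.6 TPM in the VGT3+ cells, against 368, 186, 276, 262 and 279 TPM in the Pv+ cells. Here VGT3+ cell 5 stood apart from the other 4 VGT3+ cells. Nrsn1, a vesicle membrane protein of neurons, averaged 0.00607 ± 0.0136 TPM in VGT3+ cells and 119.7 ± 89.6 TPM in Pv+ cells. Ndufaf2, an assembly factor of respiratory complex I, averaged 68.9 ± 86.5 TPM in VGT3+ cells and 1149.9 ± 444 TPM in Pv+ cells.

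**Figure D1:**
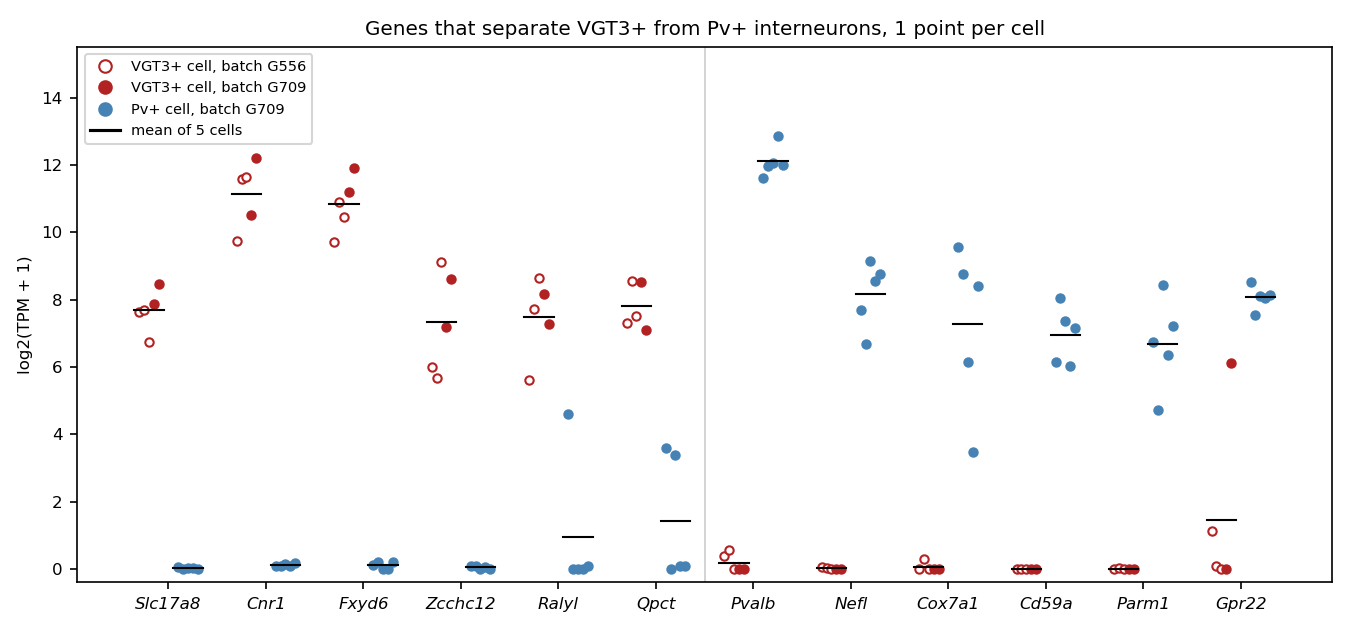
Level of 12 genes in each cell, as log2(TPM + 1). For each gene the VGT3+ cells stand on the left (open circles, batch G556; filled red circles, batch G709) and the Pv+ cells on the right (blue), with a bar at the mean of 5 cells. Every VGT3+ cell lies above every Pv+ cell for the 6 genes left of the line and below for the 6 right of it. The rule that chose these genes required this.

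The promoters of the first genes on each side are shown so that the sequence next to these on or off genes can be read. The RefSeq promoter table (GRCm38.p6) held 9 of the 15 VGT3+ genes and 11 of the 15 Pv+ genes. Among genes with a single promoter in it, the 2 with the largest difference of each type are printed, 250 bases up to the transcription start, 5′ to 3′ on the gene's strand. The start is that of RefSeq. For Pthlh it lies inside the GENCODE span given for the gene below, so part of its window, with the E-box, is within that span. Capitals mark the E-box CANNTG, the core that basic helix-loop-helix factors bind, searched on both strands, where it reads the same. It occurs in 66.2% of 32851 promoters of this length, so a match describes the letters only.
Fxyd6, chr9:45369935-45370184, plus strand: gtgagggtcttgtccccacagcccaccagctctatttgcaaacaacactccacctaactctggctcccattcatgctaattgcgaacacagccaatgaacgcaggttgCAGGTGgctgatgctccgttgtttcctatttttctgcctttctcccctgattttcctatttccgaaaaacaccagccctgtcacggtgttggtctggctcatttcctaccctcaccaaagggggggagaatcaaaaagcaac
Zcchc12, chrX:36195654-36195903, plus strand: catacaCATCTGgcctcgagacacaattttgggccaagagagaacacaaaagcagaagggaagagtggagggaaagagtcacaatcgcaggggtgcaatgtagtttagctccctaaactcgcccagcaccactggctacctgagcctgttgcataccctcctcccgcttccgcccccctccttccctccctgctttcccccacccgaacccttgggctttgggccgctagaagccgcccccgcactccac
Pthlh, chr6:147264014-147264263, minus strand: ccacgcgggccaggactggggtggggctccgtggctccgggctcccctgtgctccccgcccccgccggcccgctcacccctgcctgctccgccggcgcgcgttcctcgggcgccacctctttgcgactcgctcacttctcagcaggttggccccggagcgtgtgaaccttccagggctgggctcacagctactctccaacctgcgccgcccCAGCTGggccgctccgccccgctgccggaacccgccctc
A930003A15Rik, chr16:19884275-19884524, minus strand: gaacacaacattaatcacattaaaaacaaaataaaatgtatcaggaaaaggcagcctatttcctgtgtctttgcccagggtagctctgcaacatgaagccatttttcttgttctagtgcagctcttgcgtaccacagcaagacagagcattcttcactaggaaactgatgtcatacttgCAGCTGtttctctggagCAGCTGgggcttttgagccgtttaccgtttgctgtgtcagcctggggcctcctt

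The 4 windows also differ in base composition, with 50.4% G or C in Fxyd6, 58.8% in Zcchc12, 75.2% in Pthlh and 45.2% in A930003A15Rik. The A930003A15Rik window holds 2 E-boxes and the others 1 each.

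The machinery of transmitter release differed in which member of a gene family was used. Among 14 synaptotagmins and complexins, 3 were higher in every VGT3+ cell and 1 was lower in every VGT3+ cell (21.4% and 7.14%, against 2.46% and 2.44% of all genes). Under median-of-ratios scaling 1 was higher (Cplx2) and 2 were lower (Syt2 and Cplx1), against 1.51% and 3.57% of all genes. Syt1 and Syt2 encode the calcium sensors that trigger fast release. Syt2 (chromosome 1, 134646677 to 134762593) was listed at 0 in all 5 VGT3+ cells, against 27.2, 38.3, 65.5, 44.3 and 51.2 TPM in the Pv+ cells. Syt1 (chromosome 10, 108497650 to 109010982) was at 369, 273, 895, 721 and 712 TPM in the VGT3+ cells, against 131, 238, 235, 226 and 190.3 TPM in the Pv+ cells. Syt2 was thus found in Pv+ cells only, and Syt1 in all 10 cells. In TPM every VGT3+ cell was above every Pv+ cell for Syt1, but under median-of-ratios scaling the groups overlapped. In Pv+ cells the log2 ratio of Syt2 to Syt1 within a cell averaged −2.17 ± 0.32 (SD, n = 5). No ratio is given for VGT3+ cells, where Syt2 was listed at 0.

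Complexins clamp and speed the fusion of docked vesicles. Cplx2 was at 75.1, 210.0, 274, 114 and 368 TPM in the VGT3+ cells, against 6.33, 24.4, 0.386, 0.272 and 1.93 TPM in the Pv+ cells, and differed by 5.51. Cplx1 was at 332, 214, 7.89, 412 and 615 TPM in the VGT3+ cells, against 811, 559.9, 632, 599.8 and 573 TPM in the Pv+ cells. In TPM the groups overlapped for Cplx1 and not for Cplx2. Under median-of-ratios scaling Cplx1 was lower in every VGT3+ cell. On the log2 scale, Cplx1 led Cplx2 by at most 2.13 in a VGT3+ cell and by at least 4.47 in every Pv+ cell, and Cplx2 led in VGT3+ cell 3. The vesicle proteins Vamp1 and Vamp2 divided in the same manner. Vamp1 was at 15.3, 0.381, 0, 0 and 4.38 TPM in the VGT3+ cells, against 64.3, 42.4, 45.6, 126 and 43.2 TPM in the Pv+ cells. Vamp2 was at 8.46, 10.5, 31.5, 36.6 and 117 TPM in the VGT3+ cells, against 6.25, 1.48, 8.7, 4.3 and 7.98 TPM in the Pv+ cells. The log2 ratio of Vamp1 to Vamp2 averaged −3.40 ± 2.49 in VGT3+ cells and 3.29 ± 1.05 in Pv+ cells, without overlap. VGT3+ cell 1 was the exception to the direction within its type, with Vamp1 above Vamp2.

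At the active zone, the scaffold Piccolo (Pclo) was at 225, 495, 469, 708 and 589.5 TPM in the VGT3+ cells, against 163, 49, 116, 30.5 and 72.1 TPM in the Pv+ cells, with every VGT3+ cell above. Rims1 and Rims2, which tether calcium channels to vesicles, overlapped one by one, with means of 60.3 ± 59.2 TPM in VGT3+ cells and 8.41 ± 7.23 TPM in Pv+ cells for Rims1 and 1.47 ± 3.3 TPM in VGT3+ cells and 7.34 ± 5.49 TPM in Pv+ cells for Rims2. Their ratio did not overlap: the log2 ratio of Rims1 to Rims2 was 2.11 to 7.24 in VGT3+ cells and −3.90 to 2.03 in Pv+ cells. Syt13, an atypical synaptotagmin, averaged 69.6 ± 45.1 TPM in VGT3+ cells and 4.09 ± 3.89 TPM in Pv+ cells. It was separated in TPM and not under median-of-ratios scaling. Snap25 and Sv2a, common to all synapses, overlapped between types, with means of 756 ± 169.9 TPM in VGT3+ cells and 478 ± 128 TPM in Pv+ cells for Snap25 and 375 ± 147 TPM in VGT3+ cells and 236 ± 86 TPM in Pv+ cells for Sv2a. Over the 35 SNARE, vesicle and active zone genes as a whole, 25 were higher and 10 lower in VGT3+ cells, with 1 separated in each direction (2.86%, close to the 2.46% and 2.44% of all genes). Their median difference was 0.70, with 0.20 under median-of-ratios scaling and 0.30 in batch G556 alone, against 0.02 over all genes and 0.43 over genes detected in all 10 cells.

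Release is started by presynaptic calcium channels, and single members of this family differed. Of 11 calcium channel genes, 1 was higher and 1 lower in every VGT3+ cell (9.09% each, against 2.46% and 2.44% of all genes). Their median difference was 0.85, and −0.47 in batch G709. Cacna1b, the pore of N-type channels, was at 40.8, 74.1, 37.6, 14.2 and 51.6 TPM in the VGT3+ cells, against 12, 0, 3.93, 3.16 and 6.39 TPM in the Pv+ cells. Cacna1a, the pore of P/Q-type channels, was at 4.66, 0, 0.437, 1.34 and 0 TPM in the VGT3+ cells, against 5.4, 9.08, 8.44, 7.85 and 2.52 TPM in the Pv+ cells. Both were low, and the groups overlapped for Cacna1a. For Cacna1b the lowest VGT3+ cell (14.2 TPM) was little above the highest Pv+ cell (12 TPM), and under median-of-ratios scaling the groups overlapped. The log2 ratio of Cacna1a to Cacna1b averaged −4.46 ± 1.61 in VGT3+ cells and 0.65 ± 1.82 in Pv+ cells, without overlap. The auxiliary subunit Cacna2d2 was at 0.407, 0, 0, 4.04 and 0.888 TPM in the VGT3+ cells, against 6.03, 13.1, 48.6, 29.8 and 29.4 TPM in the Pv+ cells, and was lower in every VGT3+ cell. The β subunit Cacnb4 averaged 129 ± 83.3 TPM in VGT3+ cells and 25 ± 24.3 TPM in Pv+ cells and overlapped.

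Of 28 paralog pairs compared within cells, the ratio was lower in every VGT3+ cell for 10, higher for 1 (Rims1 to Rims2) and overlapping for 17. The direction depends on which member of a pair was written first, and the pairs were chosen with earlier results of these data known. The balance of lower and higher ratios is therefore no result in itself, and no share over other gene pairs was computed. Each ratio was taken with 1 TPM added to both members, and the second members Kcnc4 and Kcna4 were listed at 0 in all 10 cells, so those ratios follow the first member alone. In VGT3+ cells Syt2, Cox6a2 and Pygm were listed at 0, so their ratios to Syt1, Cox6a1 and Pygb follow the second member alone there. The ratio of Cacna2d2 to Cacna2d1 follows Cacna2d2 alone in 9 cells, since Cacna2d1 was above 0 only in VGT3+ cell 2.

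**Figure D2:**
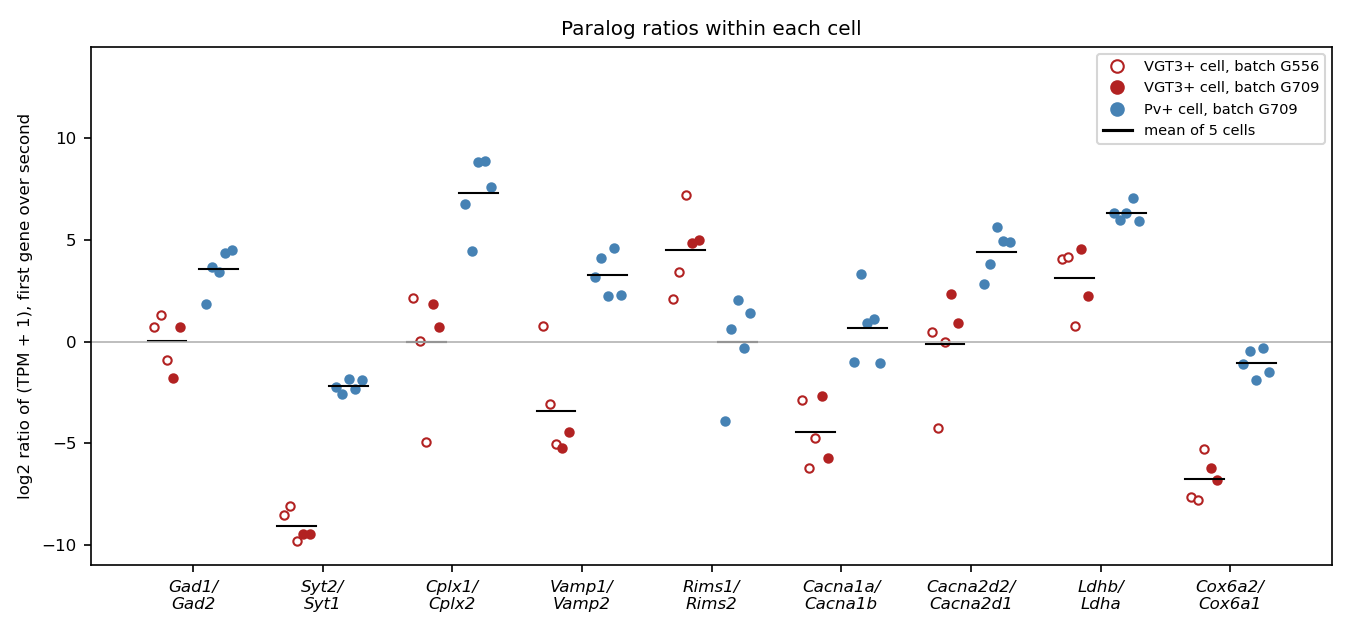
Log2 ratio of (TPM + 1) between 2 related genes within each cell, first gene over second. VGT3+ cells stand on the left of each pair (open, batch G556; filled red, batch G709) and Pv+ cells on the right (blue), with bars at the mean of 5 cells. All 9 pairs drawn are free of overlap, with VGT3+ cells below for 8 and above for Rims1/Rims2. Which type lies below follows the order in which a pair is written. Syt2 and Cox6a2 are listed at 0 in VGT3+ cells, so the points there show Syt1 and Cox6a1 alone.

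The enzymes and transporters of GABA did not move as a block. Gad2, the glutamate decarboxylase of nerve terminals, was at 191, 145, 921, 704 and 472 TPM in the VGT3+ cells, against 72.9, 27.6, 37.2, 30.4 and 23.4 TPM in the Pv+ cells. Gad1, the decarboxylase that makes most of the cell's GABA, had means of 429.9 ± 219 TPM in VGT3+ cells and 448 ± 148 TPM in Pv+ cells. Slc32a1, the transporter that fills vesicles with GABA, was at 31, 27.6, 0, 9.93 and 33.8 TPM in the VGT3+ cells, against 201, 70.6, 119.7, 40.4 and 87 TPM in the Pv+ cells. Every VGT3+ cell was thus above for Gad2 and below for Slc32a1, while Gad1 overlapped. Over the 7 genes tested, the median difference was −0.14. On the receiving side, the δ subunit of extrasynaptic GABA-A receptors, Gabrd, was listed at 0 in all 5 VGT3+ cells, against 4.51, 11.6, 48.9, 0.233 and 101 TPM in the Pv+ cells. The carbonic anhydrase Car7, which supplies bicarbonate to neurons, was listed at 0 in all 5 VGT3+ cells, against 10.2, 0.39, 7.89, 2.68 and 19 TPM in the Pv+ cells. Both were listed at 0 in VGT3+ cells and found in all Pv+ cells, in 1 of them at under 1 TPM for each gene. The chloride exporter Slc12a5 was at 0, 48.3, 1.81, 31.9 and 81.8 TPM in the VGT3+ cells, against 71.9, 46.3, 83.7, 62.5 and 97.6 TPM in the Pv+ cells, and the groups overlapped through VGT3+ cells 2 and 5.

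Several peptides and receptors were at or near 0 in 1 type and well above it in the other. Pthlh, parathyroid hormone-like peptide (chromosome 6, 147252101 to 147264183), averaged 0.0637 ± 0.11 TPM in VGT3+ cells and 1454 ± 787 TPM in Pv+ cells. Tac1, the precursor of substance P, was listed at 0 in all 5 VGT3+ cells, against 278, 60.9, 2.6, 17.4 and 13.7 TPM in the Pv+ cells. Pv+ cell 1 was by far the highest in Tac1. Pnoc, the precursor of nociceptin, was at 30.8, 1.47, 16, 2.56 and 27.2 TPM in the VGT3+ cells, against 0.43, 0, 0, 0.517 and 0.121 TPM in the Pv+ cells. All VGT3+ cells were above all Pv+ cells, in cells 2 and 4 by little. Calca, the precursor of calcitonin gene-related peptide, was at 212, 47486, 0, 0 and 75.1 TPM in the VGT3+ cells, against 2.09, 0.278, 1.38, 0.98 and 1.5 TPM in the Pv+ cells. A single cell, VGT3+ cell 2, held nearly all of it. Npy, the precursor of neuropeptide Y, was likewise carried by 1 cell of each type, at 3.32, 9121, 89.2, 0 and 0 TPM in the VGT3+ cells, against 2297, 2.42, 3.36, 3.74 and 10.1 TPM in the Pv+ cells. The 13 peptide precursors tested had a median difference of 0.19, and −0.90 in batch G709.

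Among 25 receptors for modulators and peptides, 2 were higher and 1 lower in every VGT3+ cell (8% and 4%, against 2.46% and 2.44% of all genes). Npy1r, a receptor for neuropeptide Y, was at 33.5, 354, 62.2, 144 and 131 TPM in the VGT3+ cells, against 0 in all 5 Pv+ cells. Htr3a, the serotonin-gated cation channel, averaged 660.0 ± 499 TPM in VGT3+ cells and 0.175 ± 0.239 TPM in Pv+ cells, with VGT3+ cells 4 and 5, both of batch G709, at the top. Chrm2, the muscarinic M2 receptor, was listed at 0 in all 5 VGT3+ cells, against 1.84, 32.3, 19.2, 2.21 and 43 TPM in the Pv+ cells. None of the 3 overlapped, and Npy1r and Chrm2 were listed at 0 throughout the lower type. Of the endocannabinoid genes, only Cnr1 was separated among 9 (11.1%, against 2.46% of all genes). Mgll, the lipase that breaks down 2-arachidonoylglycerol, averaged 54.8 ± 43.7 TPM in VGT3+ cells and 14.7 ± 6.88 TPM in Pv+ cells and overlapped. Pde1c and Pde4b, which break down cyclic nucleotides, were found in VGT3+ cells alone. Pde1c was at 12.8, 2.45, 9.68, 37.3 and 27.6 TPM in the VGT3+ cells, against 0 in all 5 Pv+ cells, and Pde4b at 0.0154 to 42.8 TPM in VGT3+ cells and 0 in Pv+ cells.

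Receptors for glutamate differed in Gria3 and Cacng2. Gria3, an AMPA receptor subunit (X chromosome, 41400854 to 41678601), was at 0.0212, 0.00824, 0, 0.207 and 0 TPM in the VGT3+ cells, against 17.5, 23.2, 58.4, 101 and 70 TPM in the Pv+ cells. Cacng2 (stargazin), which carries AMPA receptors to the membrane, was at 26.8, 73.4, 0.0302, 2.4 and 54.9 TPM in the VGT3+ cells, against 82.4, 159, 97.4, 93.7 and 107 TPM in the Pv+ cells. Both were lower in every VGT3+ cell, by −5.44 and −3. Gria1, Gria2 and Gria4 overlapped, with differences of −1.61, −0.69 and −2.19. The median over the 14 AMPA receptor genes was −0.74, with 2 (14.3%, against 2.44%) separated below and none above.

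Potassium channels differed in single members. Of 28 genes for Kv channels and their subunits, 5 were lower in every VGT3+ cell (Kcnab1, Kcnab3, Kcnc1, Kcnc2 and Kcnip2), a share of 17.9% against the background of 2.44%. Kcnq5 alone was higher, a share of 3.57% against 2.46%. The median difference of the 28 was −0.41 and −0.07 in batch G709. Kcnc1 and Kcnc2 encode Kv3 channels, which end spikes quickly. Kcnc1 was at 7.43, 26.3, 1.84, 20.2 and 29.7 TPM in the VGT3+ cells, against 94.2, 63.2, 147, 65.2 and 87.4 TPM in the Pv+ cells. Kcnc2 was at 6.75, 10.6, 0, 0 and 0 TPM in the VGT3+ cells, against 26.6, 90.1, 199, 148 and 265 TPM in the Pv+ cells. The lowest Pv+ cell was above the highest VGT3+ cell for both.

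Kcnab1 and Kcnab3 encode β subunits that join Kv1 channels. Kcnab1 was at 0.0121, 0.00945, 25.5, 0 and 0 TPM in the VGT3+ cells, against 76.8, 65.5, 66.7, 98.2 and 101 TPM in the Pv+ cells, and VGT3+ cell 3 was the only VGT3+ cell with more than a trace. Kcnab3 averaged 0.434 ± 0.861 TPM in VGT3+ cells and 30.9 ± 20.1 TPM in Pv+ cells. Kcnip2, a partner of Kv4 channels, was listed at 0 in VGT3+ cells and at 1.38 to 15.2 TPM in Pv+ cells. Kcnq5, a channel of the M-current, was at 9.29, 0.518, 0.324, 78.7 and 21.5 TPM in the VGT3+ cells, against 0, 0, 0, 0.058 and 0 TPM in the Pv+ cells, and falls outside the rule by which genes were named. Among other channels, the calcium-activated Kcnn2 was higher in every VGT3+ cell, with means of 37.1 ± 35.8 TPM in VGT3+ cells and 3.45 ± 2.85 TPM in Pv+ cells, and the leak channel Kcnk1 was lower, with means of 12.7 ± 17.7 TPM in VGT3+ cells and 141 ± 76.6 TPM in Pv+ cells.

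Of 9 genes of the perineuronal net, the matrix sheath around many Pv+ cells, Hapln4 and Adamts15 were lower in every VGT3+ cell (22.2%, against 2.44% of all genes). The median difference was −2.31, and −0.92 with a minimum mean of 10 TPM. Hapln4, which links the net's proteoglycans to hyaluronan, was at 0, 0, 0, 0.122 and 15.8 TPM in the VGT3+ cells, against 38.1, 17.9, 119, 55.2 and 28.8 TPM in the Pv+ cells. Adamts15, a protease that cuts those proteoglycans, was at 0, 0.0137, 0, 0 and 0 TPM in the VGT3+ cells, against 49, 2.36, 15.1, 0.772 and 25.2 TPM in the Pv+ cells. Acan, the proteoglycan aggrecan, was listed at 0 in all VGT3+ cells and at 0 to 14.7 TPM in Pv+ cells, and so overlapped. Ncan (neurocan) and Hapln1 went the other way, with differences of 2.77 and 1.05, and overlapped. Among 17 cadherins, Cdh11 was higher in every VGT3+ cell at 22.5, 128, 381, 71.2 and 103 TPM in the VGT3+ cells, against 0, 10.9, 12.3, 5.77 and 7.48 TPM in the Pv+ cells. Pcdh9 was lower in every VGT3+ cell, with means of 11.3 ± 16 TPM in VGT3+ cells and 85.1 ± 32.7 TPM in Pv+ cells. Each is 5.88% of the 17, against 2.46% of all genes above and 2.44% below.

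Genes of the 2 germinal zones were separated in part. Of 7 caudal ganglionic eminence genes compared, 5 (71.4%, against 2.46% of all genes) were higher in every VGT3+ cell: Adarb2, Nr2f2, Sp8, Cnr1 and Htr3a. An eighth, Prox1, was under the minimum mean and was listed at 0 in all 5 VGT3+ cells, against 0, 0, 0, 7.92 and 0.870 TPM in the Pv+ cells. Cnr1 and Htr3a were also listed as markers of the Cck class, so they are not separate evidence of the germinal zone. Of the 8 markers listed for that class, 4 (50%, against 2.46% of all genes) were higher in every VGT3+ cell. Among these was Slc17a8, which drove the reporter. The rest overlapped, 1 of the 8 had the lower mean of log values in VGT3+ cells, and 1 was at least 4-fold lower in batch G709. The lists were chosen with earlier results of these data known. Sp8, a zinc finger factor, was at 1.63, 44.1, 19.1, 0.682 and 24.9 TPM in the VGT3+ cells, against 0 in all 5 Pv+ cells. Of 6 medial ganglionic eminence genes, Lhx6 and Nxph1 (33.3%, against 2.44%) were lower in every VGT3+ cell, while 2 of the 6 had the higher mean in VGT3+ cells. Lhx6, the LIM factor that specifies medial cells, was listed at 0 in all 5 VGT3+ cells, against 15, 5.51, 26.6, 8.98 and 14.8 TPM in the Pv+ cells. Nr2f2 was listed at 0 in Pv+ cells and Lhx6 in VGT3+ cells, and 1 VGT3+ cell, cell 4, held only 0.389 TPM of Nr2f2.

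Single genes of the cytoskeleton were separated in both directions. Nefl, the light neurofilament (chromosome 14, 68083863 to 68089095), was at 0.0309, 0.024, 0, 0 and 0 TPM in the VGT3+ cells, against 207, 102, 566, 375 and 430.2 TPM in the Pv+ cells. Nefm, the medium neurofilament, lies next to it, and the 2 annotated spans overlap. It was at 0.018, 0.014, 0, 0 and 0 TPM in the VGT3+ cells, against 21.9, 197, 299.6, 140.5 and 211 TPM in the Pv+ cells. Nefh, the heavy neurofilament on chromosome 11, was at 6.24, 0.407, 0, 102 and 26.2 TPM in the VGT3+ cells, against 76.6, 212, 392, 309 and 393 TPM in the Pv+ cells, and overlapped only through VGT3+ cell 4. Ina, an internexin of the same class, averaged 104 ± 103 TPM in VGT3+ cells and 326 ± 88 TPM in Pv+ cells, without overlap. In the other direction, Stmn1, a protein that takes microtubules apart, was at 2634, 3867, 1493, 1116 and 718 TPM in the VGT3+ cells, against 74.1, 66.4, 84.8, 124 and 22 TPM in the Pv+ cells. Tuba1a, the α-tubulin of young neurons, averaged 6232 ± 2986 TPM in VGT3+ cells and 1050.5 ± 247 TPM in Pv+ cells. Every VGT3+ cell was above every Pv+ cell for both. The list of 26 genes as a whole had 2 separated above (7.69%, against 2.46%), 3 separated below (11.5%, against 2.44%) and a median of 0.32. Under median-of-ratios scaling the median was −0.10. Of the 26, 14 had the higher mean of log values in VGT3+ cells and 12 the lower. Stmn2 and Stmn3 differed by 0.39 and −2.23, without being separated.

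**Figure D3:**
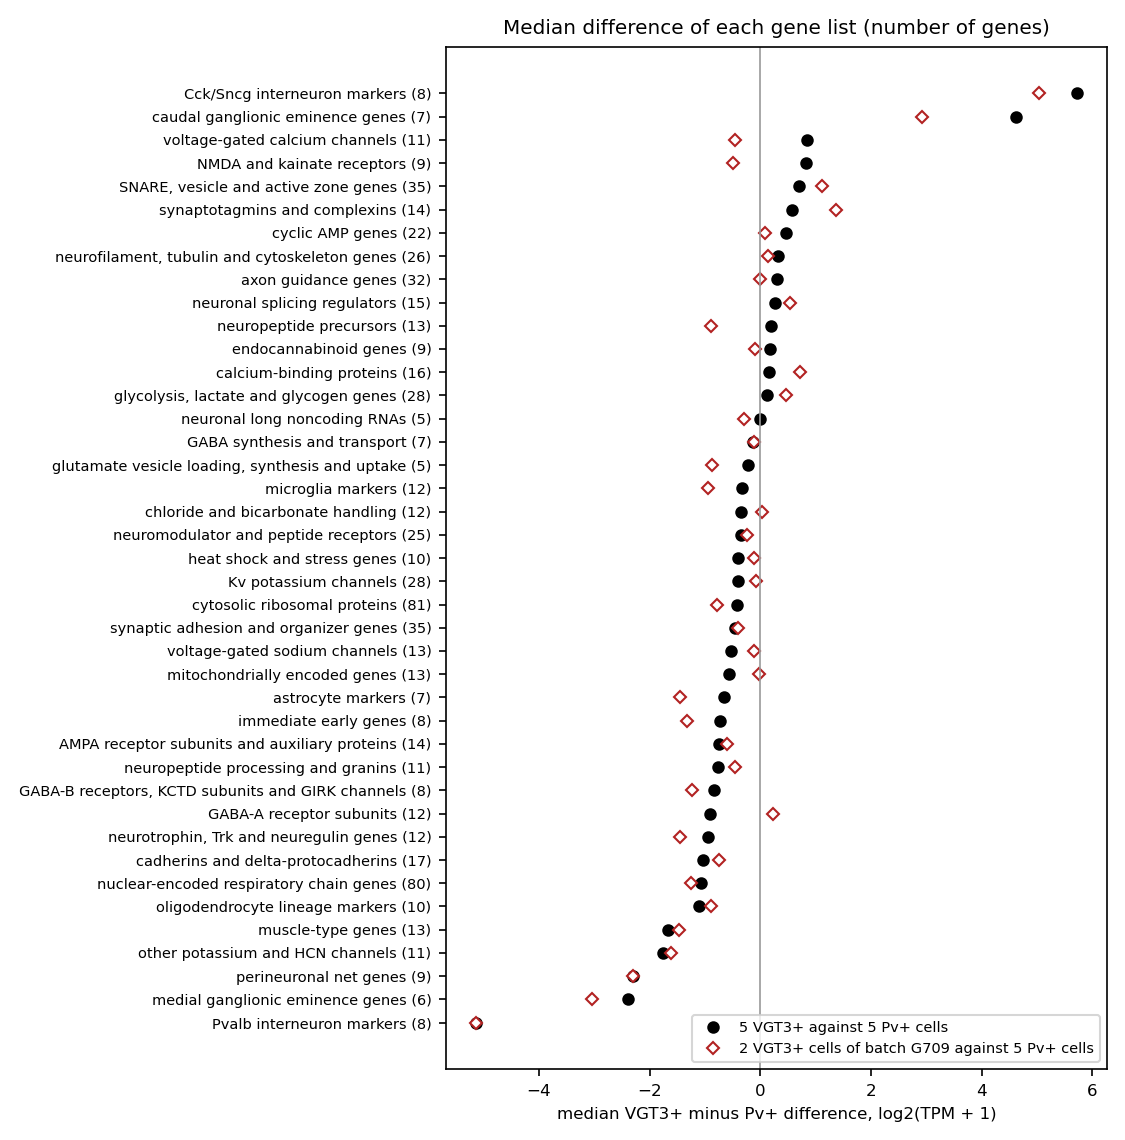
Median difference between VGT3+ and Pv+ cells over the genes of each list, in log2(TPM + 1), for the 41 lists with at least 5 genes compared (number of genes in brackets). Black circles use all 5 VGT3+ cells and open diamonds only the 2 of batch G709. The median over all 12014 genes is 0.02, the nuclear-encoded respiratory chain lies at −1.07 and −1.25, and several small lists change side between the marks.

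Many genes of the respiratory chain were lower in VGT3+ cells, though not those of every complex. Of 80 nuclear-encoded genes, 67 had the lower mean of log values in VGT3+ cells and 13 the higher. At least 4-fold lower were 14 of the 80, against 9.17% of all genes. Every VGT3+ cell was below every Pv+ cell for 27 of them (33.8%, against 2.44% of all genes) and above for 3 (3.75%, against 2.46%). The median difference was −1.07, and −1.25 in batch G709 alone. The chain passes electrons through complexes I to IV, and complex V uses the resulting proton gradient to make ATP. Summed over 37 genes, complex I stood at 29511 to 48440 TPM in VGT3+ cells and 72549 to 105145 TPM in Pv+ cells. Complex V, 15 genes, stood at 8530 to 16329 TPM in VGT3+ cells and 24397 to 32331 TPM in Pv+ cells. Complex IV, 14 genes, stood at 14809 to 27672 TPM in VGT3+ cells and 29161 to 44723 TPM in Pv+ cells. None of the 3 sums overlapped. Ndufa4 was counted with complex I by its symbol, although the protein is now placed with complex IV. Without it, complex I stood at 20428 to 33663 TPM in VGT3+ cells and 41716 to 62025 TPM in Pv+ cells.

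For complex III the sums overlapped, at 6499 to 16356 TPM in VGT3+ cells and 16008 to 28130 TPM in Pv+ cells. Complex II, which also serves the citric acid cycle, ran against the rest in TPM, with 1221 to 3101 TPM in VGT3+ cells and 696 to 1034 TPM in Pv+ cells. Its median difference over 4 genes was 0.98, against −1.21 for complex I, −1.25 for complex III, −1.12 for complex IV and −0.78 for complex V. Of the 4, 3 were higher in VGT3+ cells and Sdhb was lower, by −0.61 (−1.56 in batch G709). Divided by the median-of-ratios size factors, the complex II sums overlapped between the types. VGT3+ cell 4 (1221 TPM, size factor 1.19) then fell below Pv+ cell 2 (1008 TPM, size factor 0.78). The sums of the other complexes were not recomputed with size factors.

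**Figure D4:**
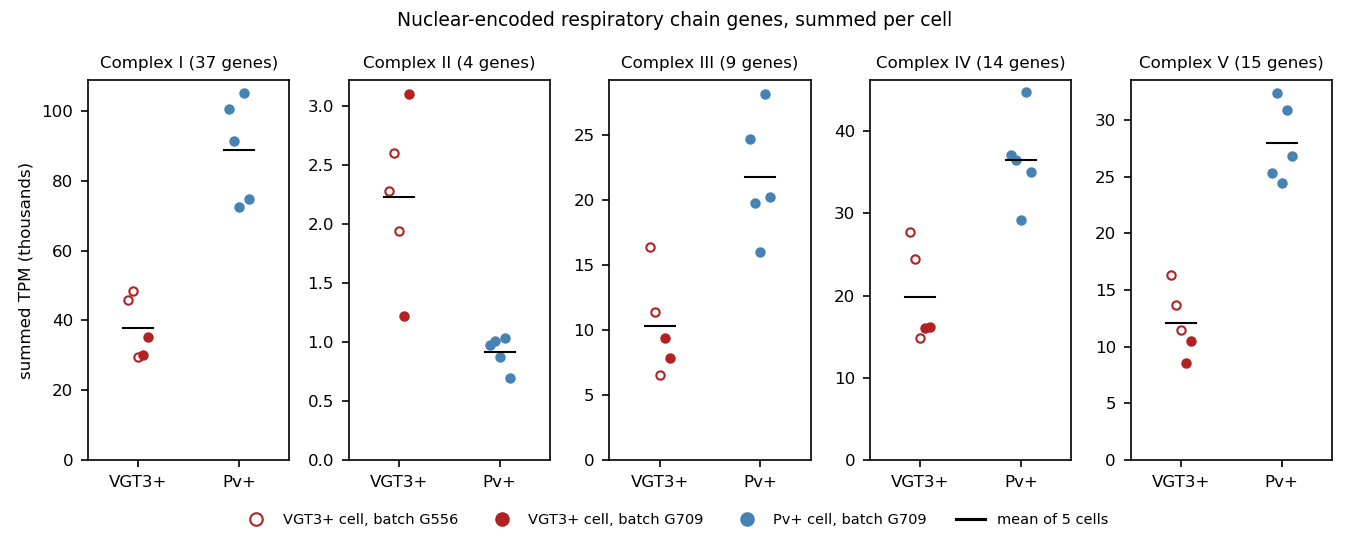
Summed TPM, in units of 1000 TPM, of the nuclear-encoded genes of each respiratory complex in each cell. VGT3+ cells stand on the left (open, batch G556; filled red, batch G709) and Pv+ cells on the right (blue), with bars at the mean of 5 cells and every axis starting at 0. In TPM the groups do not overlap for complexes I, II, IV and V, and VGT3+ cells are higher only for complex II. With size factors the complex II groups overlap.

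Single subunits carried large values. Ndufa4 was at 12208, 17733, 8928, 9632 and 12578 TPM in the VGT3+ cells, against 38484, 34460.0, 30834, 43224 and 29790.2 TPM in the Pv+ cells. Ndufa1, a small subunit of complex I encoded on the X chromosome, averaged 4547 ± 768 TPM in VGT3+ cells and 12223 ± 2480.4 TPM in Pv+ cells. Atp5b, the catalytic β subunit of complex V, was at 891, 1079, 1486, 789 and 974 TPM in the VGT3+ cells, against 2036, 5998, 2485, 2508 and 1831 TPM in the Pv+ cells. All 3 were lower in every VGT3+ cell, with differences of −1.56, −1.42 and −1.40, and Atp5b falls outside the naming rule. The largest differences lay in Cox6a2 and Cox7a1, the heart and muscle isoforms of 2 cytochrome c oxidase subunits. Cox7a1 (chromosome 7, 30184144 to 30186078) was at 0, 0.223, 0, 0 and 0 TPM in the VGT3+ cells, against 747, 436, 69.4, 10.1 and 336 TPM in the Pv+ cells. Its Pv+ values ran over a wide range, from 10.1 TPM in cell 4 to 747 TPM in cell 1. Cox6a1, the general isoform that pairs with Cox6a2, was also lower in every VGT3+ cell, with means of 128 ± 78.4 TPM in VGT3+ cells and 584 ± 155 TPM in Pv+ cells.

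The 3 subunits that were higher in every VGT3+ cell were Ndufs8, Ndufv1 and Sdhc, named because they run against the list. Ndufs8, an iron-sulphur subunit of complex I, averaged 1877 ± 302 TPM in VGT3+ cells and 1145 ± 254 TPM in Pv+ cells. Ndufv1, which holds the site where NADH is oxidised, was at 243, 148, 421, 459 and 317 TPM in the VGT3+ cells, against 88.1, 88.1, 95.1, 98.3 and 58 TPM in the Pv+ cells. Sdhc, a membrane anchor of complex II, averaged 185 ± 31.2 TPM in VGT3+ cells and 63.1 ± 24.6 TPM in Pv+ cells. Under median-of-ratios scaling none of the 3 remained separated. The count of genes with all VGT3+ cells below was then 44 of 80, against 3.57% of all genes. Of the 13 genes encoded in the mitochondrion itself, 10 had a lower mean in VGT3+ cells, 2 (15.4%, against 2.44%) were separated below and none above. Their median difference was −0.57, with −0.02 in batch G709 alone, −0.83 in batch G556 alone and −1.07 under median-of-ratios scaling. mt-Co1 averaged 22253 ± 13595 TPM in VGT3+ cells and 11043 ± 2978 TPM in Pv+ cells, and mt-Co2 averaged 142 ± 44.7 TPM in VGT3+ cells and 332 ± 91.5 TPM in Pv+ cells, with mt-Co1 overlapping and mt-Co2 lower in every VGT3+ cell.

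Transcript length moved with these differences. Length was that of the principal transcript in GENCODE, and 10083 protein-coding genes had it. Among the 30 respiratory genes under 700 bases the median difference was −1.44 and 17 (56.7%, against 2.44% of all genes) were separated below. Among 70 other protein-coding genes under 700 bases with a mean of at least 100 TPM, it was −0.94, with 8 (11.4%) separated below and none above. In the 239 other genes of 1500 to under 2500 bases the median was 0.77, with 6 (2.51%) separated below and 47 (19.7%) above. In the 13 respiratory genes of that class it was −0.36, with 2 (15.4%) below and 1 (7.69%) above. In batch G709 alone the medians under 700 bases were −1.49 for the respiratory genes and −1.50 for the others. In that batch and class, short transcripts outside the respiratory chain were thus as low. In batch G556 alone the medians under 700 bases were −1.43 and −0.80, in the same order. In batch G709 at 700 to under 1000 bases they were −1.41 and −0.15. They were −0.64 and 0.17 at 1000 to under 1500 bases, and −0.53 and 1.00 at 1500 to under 2500 bases. At 2500 to under 4000 bases, with 5 respiratory genes, they were 1.47 and 0.79.

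The cytosolic ribosomal proteins were not on 1 side, and their balance turned with the scaling. Of 81 genes, 8 were higher in every VGT3+ cell (Rpl10, Rpl14, Rpl15, Rpl3, Rpl4, Rpl5, Rpl6 and Rpl7) and 3 lower (Rpl12, Rps13 and Rps21), shares of 9.88% and 3.70% against 2.46% and 2.44% of all genes. Under median-of-ratios scaling 3 were above and 14 below, against 1.51% and 3.57% of all genes. In batch G709 alone 12 were above and 37 below, where the shares of all genes were 13.5% and 7.72%. The median over the 81 was −0.42, with −0.92 under that scaling, −0.79 in batch G709 and 0.06 in batch G556. The median difference was −1 over the 25 of under 700 bases, −0.02 over the 25 of 700 to under 1000 bases, 0.21 over the 18 of 1000 to under 1500 bases and 0.92 over the 8 of 1500 to under 2500 bases. It was −0.49 over the 3 of 2500 to under 4000 bases and −0.76 for the single longer one. Rpl3 averaged 274 ± 60.2 TPM in VGT3+ cells and 70.3 ± 18.8 TPM in Pv+ cells. Rps29, a short transcript, averaged 1231 ± 891 TPM in VGT3+ cells and 4199 ± 1855 TPM in Pv+ cells and overlapped. Across the 80 ribosomal genes with a length, Spearman's correlation of length with difference was 0.44, and across the 80 respiratory genes 0.42. These genes share the same 10 libraries and are no independent points. The part of transcript length in any difference between the types was not tested.

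**Figure D5:**
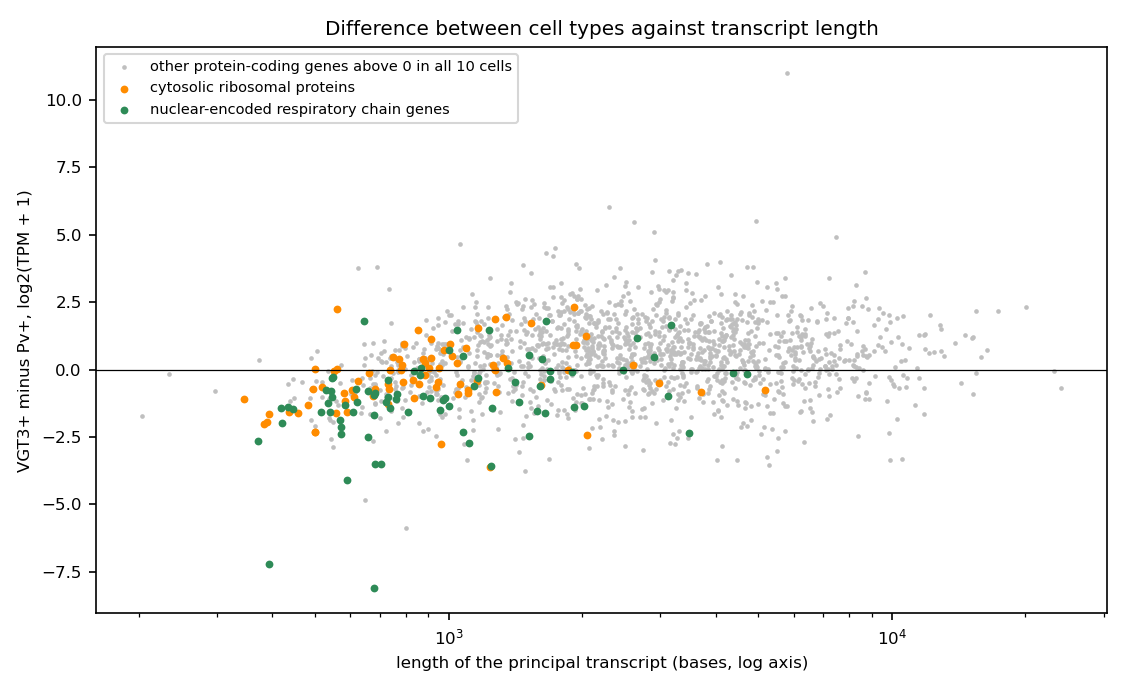
Difference between VGT3+ and Pv+ cells in log2(TPM + 1) against the length of each gene's principal transcript in bases on a log axis. Green points are nuclear-encoded respiratory chain genes, orange points cytosolic ribosomal proteins and grey points the other protein-coding genes above 0 in all 10 cells. Points under 700 bases lie mostly below 0, with a median of −1.44 for the respiratory genes, and the 2 lowest green points are Cox6a2 and Cox7a1.

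Glycolysis genes were not on 1 side. Of 28 genes of glycolysis, lactate and glycogen, 4 were higher in every VGT3+ cell (Gapdh, Gpi1, Pgk1 and Tpi1) and 2 lower (Ldhb and Pygm), shares of 14.3% and 7.14% against 2.46% and 2.44% of all genes, with a median of 0.13. Pgk1, which makes ATP in glycolysis, was at 299.7, 524, 387, 509 and 498 TPM in the VGT3+ cells, against 95.6, 47.9, 131, 132 and 101 TPM in the Pv+ cells. Gpi1, which turns glucose phosphate into fructose phosphate, averaged 208 ± 119 TPM in VGT3+ cells and 55.2 ± 18.1 TPM in Pv+ cells. Ldhb, the lactate dehydrogenase subunit that favours pyruvate, was at 1772, 1661, 936, 1283 and 412 TPM in the VGT3+ cells, against 2610.5, 3390.3, 4569.9, 3792 and 2369.9 TPM in the Pv+ cells. Ldha, its partner, overlapped, with means of 179 ± 211 TPM in VGT3+ cells and 41 ± 12.5 TPM in Pv+ cells. The log2 ratio of Ldhb to Ldha was 3.15 ± 1.61 in VGT3+ cells and 6.33 ± 0.45 in Pv+ cells, without overlap.

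Many genes of housekeeping function have processed copies elsewhere in the genome. Of the 295 genes with all VGT3+ cells above, 88 (29.8%) were annotated pseudogenes, against 41 (14%) of the 293 with all VGT3+ cells below and 7.01% of all 12014. Reads of Gapdh, Pgk1, Tpi1, Tuba1a, Hsp90ab1, Eef1a1 and the ribosomal proteins can be shared with such copies, and their values are uncertain to that extent. Eef1a1, the general translation elongation factor, was at 823, 984, 1201, 694 and 669 TPM in VGT3+ cells, against 78.0, 87.6, 151, 77.1 and 82.8 TPM in Pv+ cells. Its neuronal paralog Eef1a2 lay between 0 and 1.09 TPM in VGT3+ cells, and at 3.75 to 77.3 TPM in Pv+ cells. Neither overlapped, and both were looked up after their values were seen.

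Trophic and activity genes held single strong differences. Ntf3 (neurotrophin-3) was listed at 0 in all VGT3+ cells and at 8.13 to 272 TPM in Pv+ cells, and was the only gene of the 12 on its list that was lower in every VGT3+ cell. Igf1 was the only one that was higher. Each is 8.33% of the 12, against 2.44% of all genes below and 2.46% above. Of 8 immediate early genes, Dusp1 and Jun (25%, against 2.44% of all genes) were lower in every VGT3+ cell. Dusp1, a phosphatase induced by stress and activity, was listed at 0 in all 5 VGT3+ cells, against 25.7, 3.92, 33.5, 5.63 and 27.1 TPM in the Pv+ cells. Jun averaged 0.497 ± 1.11 TPM in VGT3+ cells and 8.03 ± 4.14 TPM in Pv+ cells. Fos was at 0 in 3 VGT3+ cells and 4 Pv+ cells. Vsnl1, a neuronal calcium sensor, was at 2.53, 0.798, 0, 157 and 116 TPM in the VGT3+ cells, against 574, 281, 335, 399 and 303 TPM in the Pv+ cells, with the 2 VGT3+ cells of batch G709 far above the 3 of batch G556 and below all Pv+ cells.

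Markers of other cells were present and did not divide the types. The 12 microglia markers summed to 162 to 24838 TPM (median 6201) in VGT3+ cells and 4090 to 17083 TPM (median 5178) in Pv+ cells, and none of the 12 was separated. Tyrobp, an adaptor of microglial receptors, was at 13826, 652, 2616, 9268 and 91.4 TPM in the VGT3+ cells, against 3808, 3399, 12266, 3142 and 3697 TPM in the Pv+ cells. VGT3+ cells 2 and 5 were the lowest of the 10, and VGT3+ cell 1 the highest. The astrocyte markers summed to 284 to 3557 TPM in VGT3+ cells and 331 to 1332 TPM in Pv+ cells. The oligodendrocyte lineage markers summed to 5.88 to 619 TPM in VGT3+ cells and 33.8 to 431 TPM in Pv+ cells. None of the 7 astrocyte and 10 oligodendrocyte lineage markers tested was separated, and none of 10 endothelial and blood cell markers reached a mean of 1 TPM. The 10 markers of Sst, Vip and Lamp5 interneurons summed to 0 to 34.2 TPM (median 1.72) in VGT3+ cells and 0.245 to 114 TPM (median 5.75) in Pv+ cells, and neither of the 2 compared was separated. Crhbp made up most of it in Pv+ cells 1 (29.1 TPM) and 4 (114 TPM), and Reln in VGT3+ cell 3. The defining markers Sst, Vip and Calb2 were at most 0.546 TPM in any cell. The part of microglial RNA in the differences was not tested.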

How the data were processed

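Cytosol was drawn from single VGT3+ and Pv+ interneurons of organotypic hippocampal slice cultures, copied into full-length cDNA with SMART-Seq HT and made into Nextera XT libraries, 1 per cell. Per the submitters' processing notes and the study's methods, the authors split the reads with bcl2fastq, aligned them to GRCm38 with HISAT2 2.1.0, counted them per gene with HTSeq and divided by gene length. The deposited values are TPM, adding up to 1000000 per cell, with no scaling between cells or batches. Counting by strand is not given in the sources used here, so overlapping and antisense genes cannot be told apart. Estimated reads counted on genes were 15.8 to 32.2 M in VGT3+ cells and 13.2 to 18.5 M in Pv+ cells (M, 1000000), found from the spacing of low TPM values. They bound counting error only.

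TPM was turned into log2(TPM + 1), averaged over the 5 cells of a type and subtracted, for genes that averaged 1 TPM or more over the 10 cells (numpy 2.4.6, pandas 2.3.3, Python 3.11.15). No test was run, because no animal or culture was named and each type is 1 sample. The computation was tested on simulated data. The members of 45 gene lists and 28 pairs, and the lists themselves, were chosen with earlier results of these data known. Genes were named by a rule: Slc17a8, Cnr1 and Pvalb; 15 genes per type, taken by size of difference among separated genes above 0 in all 5 of its cells, averaging 10 TPM or more and 4-fold apart in the same direction in batch G709; for each list, up to 3 genes by mean TPM and up to 4 separated genes by difference; and the genes of the pairs. Genes given outside the rule were chosen after their values were seen. Some genes that the rule covers are not reported here. Of the listed symbols, 2 were found under an older symbol and 2 could not be matched. Coordinates and lengths came from GENCODE, on the same build, and promoters from RefSeq.

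Results were recomputed with the libraries of batch G709 alone, with 1 cell left out at a time, after rescaling without mitochondrially encoded genes and the 10 highest genes, after division by median-of-ratios size factors, with a pseudocount of 0.1, from medians of log values, without a filter and with a minimum mean of 10 TPM. Batch G556 alone, the classes of transcript length, the annotated gene types and the sex-linked genes were added after the values were seen.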

Additional observations from a re-analysis of the deposited data

Results flagged for a closer look

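In 122 groups of 5 cells, the mean log2(TPM + 1) of each list, the levels of the genes with the largest differences and the measures of library content were searched for 1 cell far from the other 4. Such a search picks out about 1 group in 20 by chance, and it picked out 8. VGT3+ cell 5 stood above the other VGT3+ cells in Kv potassium channels (3.24, others 1.84 to 2.15), in synaptotagmins and complexins (5.84, others up to 4.08) and in SNARE, vesicle and active zone genes (5.76, others 4.36 to 4.76). VGT3+ cell 3 stood apart 3 times: below in Pvalb interneuron markers (0.58, others 1.51 to 1.78), below in metabotropic glutamate receptors (0, others at least 2.67), and above in the 2 markers of Sst, Vip and Lamp5 interneurons that were compared (2.56, others 0 to 0.35). The last came from Reln, at 34.0 TPM in that cell. Pv+ cell 1 stood above the other Pv+ cells in neuropeptide precursors (4.04, others 1.83 to 2.29), where Npy was at 2297 TPM and Tac1 at 278 TPM. Pv+ cell 5 stood above in the 3 pyramidal neuron markers compared (2.26, others 0.68 to 0.97), where Neurod6 was at 12.2 TPM. The cause of these single cells was not tested.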

How the results depend on the processing

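No paired analysis was possible because no test was made and a cell's number names no shared animal, culture or day. The counts over all genes depended on the settings as follows. In batch G709 alone 2217 genes were at least 4-fold higher in VGT3+ cells, and 1627 were separated above and 927 below. In batch G556 alone 561 were separated above and 524 below. The separated counts rise by construction, since fewer VGT3+ cells have to lie on 1 side, and the cause of the 4-fold count in batch G709 was not tested. Size factors left 182 separated above, a minimum mean of 10 TPM left 184 separated below, a pseudocount of 0.1 gave 1793 higher and 2795 lower at 4-fold, and medians of log values gave 1852 lower. Leaving out 1 cell gave 866 to 1196 genes 4-fold higher, 965 to 1395 lower, 318 to 516 separated above and 326 to 436 separated below. Size factors moved the median over all genes to −0.25, against 0.02 in TPM.

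Of the values of reported named genes under alternatives, 3091 moved by less than the spread between cells and 182 by more, and the cause was not tested. For the medians of lists, 751 moved by less and 38 by more. Leaving out 1 cell cannot move a type's mean by as much as the SD of its cells. Gene values under those settings were thus bound by arithmetic to count as moved by less. The cells of batch G709 alone are also part of the main result. The count of 3091 is therefore a weak measure of how stable the gene values were. The respiratory chain median stayed negative under every alternative run, at −1.30 to −0.94 with 1 cell left out, −1.51 with size factors and −1.25 in batch G709 alone. The median of the peptide precursors changed sign, at −0.90 in batch G709 alone. Single libraries limit what low genes can show, since a transcript missed in 1 cell is listed at 0.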
